A study of Homo sapiens with 4 samples.

Results

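A set of 9 genes of pericellular matrix proteolysis was followed, out of 40205 genes in the table. They are 4 matrix metalloproteases (MMP1, MMP2, MMP3 and MMP14), 3 tissue inhibitors of metalloproteases (TIMP1, TIMP2 and TIMP3), the urokinase plasminogen activator PLAU and its receptor PLAUR. All 9 were found by symbol. Values came from 4 libraries of poly(A) RNA, 1 for each combination of cell line and arm. These were U87MG with a short hairpin against SRSF1, U87MG with the control hairpin, U251 with the SRSF1 hairpin and U251 with the control hairpin. U87MG and U251 are established human glioblastoma lines, and SRSF1 is a splicing factor of the SR family. All 4 cultures carried a lentivirus, given at a multiplicity of infection of 20, and had 1 week of puromycin, so the arms differ in the hairpin and not in infection or drug. The libraries titled WT are the control hairpin cultures and not unmodified cells. The labels give no hairpin sequence or number of hairpins and do not say whether a culture was a pool or a clone.

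Matrix metalloproteases are secreted or membrane-bound zinc enzymes made as inactive proenzymes. MMP1 is a collagenase that cleaves fibrillar collagen, MMP3 (stromelysin 1) cleaves proteoglycans, laminin and fibronectin and activates other proenzymes, MMP2 (gelatinase A) degrades denatured collagen and basement membrane collagen, and MMP14 is a membrane-type enzyme that activates MMP2 at the cell surface with TIMP2 as a bridge. The TIMPs bind the active site and block it. Urokinase converts plasminogen to plasmin when bound to its receptor, and plasmin in turn cleaves matrix and several proenzymes. In glioblastoma this group is known for its part in invasion of brain tissue.

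The catalytic zinc site is what makes the 4 proteases a family, and its coding sequence is printed here for each. This site was located by the same residues in each gene, so part of the bases shared was set in advance. The 33 bases that encode it were read from the longest coding transcript of each gene (GENCODE 29, GRCh38). They lie at chr11:102795549-102795581 on the reverse strand for MMP1, chr11:102840535-102840567 on the reverse strand for MMP3, chr16:55491827-55491859 on the forward strand for MMP2 and chr14:22843283-22843315 on the forward strand for MMP14. Each stretch is printed 5′ to 3′ on the coding strand, and capitals mark the codons of the 3 histidines that hold the zinc, the glutamate and the glycine of the site.
MMP1: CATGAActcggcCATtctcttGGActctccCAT
MMP3: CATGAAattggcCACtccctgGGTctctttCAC
MMP2: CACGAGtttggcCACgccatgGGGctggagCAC
MMP14: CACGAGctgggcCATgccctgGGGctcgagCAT
MMP1 and MMP3 share 24 of these 33 bases, and MMP2 and MMP14 share 27. MMP1 and MMP2 share 18.

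Reads of the genes could nevertheless be told apart for the most part. Of the 31-base words of the longest coding transcript, 0% occurred in another annotated gene for MMP14, TIMP1, TIMP3 and PLAUR. The share was 3.93% for MMP2, 4.85% for MMP1 and 6.29% for MMP3, where MMP10 was the gene that shared most. It was 14.0% for TIMP2, where the overlapping AC022966.1 shared most, and 22.8% for PLAU, where C10orf55 on the opposite strand shared most. C10orf55 stood at 0.414 RPKM in the U87MG knockdown and 0.439 RPKM in the U87MG control, and at 0.427 RPKM in the U251 knockdown and 0.555 RPKM in the U251 control. WTAPP1, which overlaps MMP1 and MMP3 on the opposite strand, did not exceed 0.072 RPKM. No source used here gives the strand setting, so reads of overlapping genes on opposite strands cannot be told apart. AC022966.1 and CEP295NL, which overlap TIMP2 in exons, and AC007336.3, which overlaps MMP2, have no values in the table. CEP295NL and AC007336.3 lie on the same strand as the gene they overlap. Whether reads of these genes were counted in TIMP2 or MMP2 was not tested.

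The values are RPKM (reads scaled to gene length and to library size), which can be set side by side between genes. The libraries held 25099799 to 27953878 reads, so 1 read in a gene of 1 kilobase was worth 0.0358 to 0.0398 RPKM. SRSF1 itself stood at 14.6 RPKM in the U87MG knockdown against 88.3 RPKM in the U87MG control, and at 15.8 RPKM in the U251 knockdown against 109 RPKM in the U251 control. As to the labelled cell type, 6 of 8 astroglial and progenitor markers reached 1 RPKM in some library, with sums of 1162 and 1678 RPKM in the U87MG knockdown and control and 1201 and 1453 RPKM in the U251 knockdown and control, most of it VIM. GFAP, the defining astrocyte marker, did not exceed 1.47 RPKM, S100B and FABP7 were listed at 0 in both U87MG libraries, and SOX2 and NES were at 0.046 to 1.79 RPKM in U87MG but at 47.9 to 83.7 RPKM in U251. OLIG2 went the other way, with 2.46 and 0.936 RPKM in the U87MG knockdown and control and 0.0263 and 0.0146 RPKM in the U251 knockdown and control. Of 6 macrophage and microglia markers, 2 reached 1 RPKM in any library, and their summed level was 112 and 64.2 RPKM in the U87MG knockdown and control and 11.4 and 9.37 RPKM in the U251 knockdown and control, most of it CD68. PTPRC, the general leukocyte marker, did not exceed 0.0213 RPKM. Of 4 endothelial markers, 1 (KDR) reached 1 RPKM, with sums of 2.57 and 2.50 RPKM in U87MG and 8.18 and 5.06 RPKM in U251 (knockdown, then control). Of 6 fibroblast and mesenchymal markers, 3 did, with sums of 6.27 and 8.69 RPKM in U87MG and 186 and 182 RPKM in U251, nearly all of it COL1A2 in U251. No marker of the 4 lists was at 0 in all libraries, and the part of other cell types in the differences below was not tested. In bulk RNA, fewer cells with a transcript and less of it per cell cannot be told apart.

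The first question was how the 2 lines differ in these genes, whichever hairpin they carry. U87MG expressed more of all 4 metalloproteases, of TIMP1 and of PLAUR, whereas U251 expressed more TIMP2 and TIMP3. PLAU did not pass the test and lay close together in the lines. By limma on log2(RPKM + 1), with 2 libraries per line and the arm as a covariate, 6 of the 9 genes were called higher in U87MG, where 21.6% of all 16098 genes tested were, and 2 were called lower, where 27.0% of all genes were (Benjamini-Hochberg adjusted p under 0.05). All 9 passed the filter of at least 1 RPKM in at least 1 library, but MMP1 and MMP3 passed only through U87MG and TIMP3 only through U251. For those 3 the filter itself asks for a difference, so their calls add nothing to the count.

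MMP3 had 590 RPKM in the U87MG knockdown and 143 RPKM in the U87MG control, against 0.881 RPKM in the U251 knockdown and 0.523 RPKM in the U251 control. Both U87MG libraries therefore lay far above both U251 libraries, where MMP3 rested on 45 and 24 reads. The limma estimate for U87MG minus U251 was 7.43 ± 0.35 on the log2 scale (SE, n = 2 libraries per line). MMP3 and MMP1 passed the filter only through U87MG, so their estimates are given as a description. MMP1 had 8.94 RPKM in the U87MG knockdown and 17.6 RPKM in the U87MG control, against 0.087 RPKM in the U251 knockdown and 0.0388 RPKM in the U251 control. The U251 values of MMP1 are only 5 and 2 reads, so the collagenase was close to undetected in that line. Its line difference was 3.68 ± 0.24 by limma, which the pseudocount of 1 holds down. By reads the U87MG control stood 453 times above the U251 control, with a 95% Clopper-Pearson interval of 125 to 3749 that covers counting error only.

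The gelatinase and its activator were present in both lines at different levels. MMP2 had 181 and 69.1 RPKM in the U87MG knockdown and control, against 22.9 and 16.7 RPKM in the U251 knockdown and control (2.45 ± 0.23, adjusted p = 0.000131 by limma). MMP14 had 122 and 132 RPKM in the U87MG knockdown and control, against 40.9 and 33.2 RPKM in the U251 knockdown and control (1.75 ± 0.17, adjusted p = 0.000159 by limma). For neither gene did the lines overlap, and for MMP14 the arms within a line lay much closer together than the lines did. The ratio of MMP14 to MMP2, as levels per length, was 0.675 in the U87MG knockdown, 1.91 in the U87MG control, 1.78 in the U251 knockdown and 1.99 in the U251 control. The U87MG knockdown was thus the only library in which MMP2 exceeded MMP14.

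The inhibitors divided between the lines. TIMP1, the inducible secreted inhibitor, had 61.6 and 99.2 RPKM in the U87MG knockdown and control, against 20.4 and 18.0 RPKM in the U251 knockdown and control (1.98 ± 0.22, adjusted p = 0.000305 by limma). TIMP2, usually the most constitutive of the family, had 24.3 and 22.1 RPKM in the U87MG knockdown and control, against 65.7 and 67.3 RPKM in the U251 knockdown and control (-1.48 ± 0.16, adjusted p = 0.00028 by limma). TIMP3, which binds to the matrix itself, was the weakest of the TIMPs followed here. It had 0.126 and 0.312 RPKM in U87MG and 1.10 and 1.28 RPKM in U251 (knockdown, then control). The limma estimate for TIMP3 was -0.85 ± 0.23, given as a description, since TIMP3 passed the filter only through U251. It rested on 18 and 45 reads in U87MG, against 168 and 176 reads in U251. TIMP1 made up 71.6% and 81.5% of the summed TIMP level in the U87MG knockdown and control, and TIMP2 75.4% and 77.8% of it in the U251 knockdown and control.

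**Figure D1:**
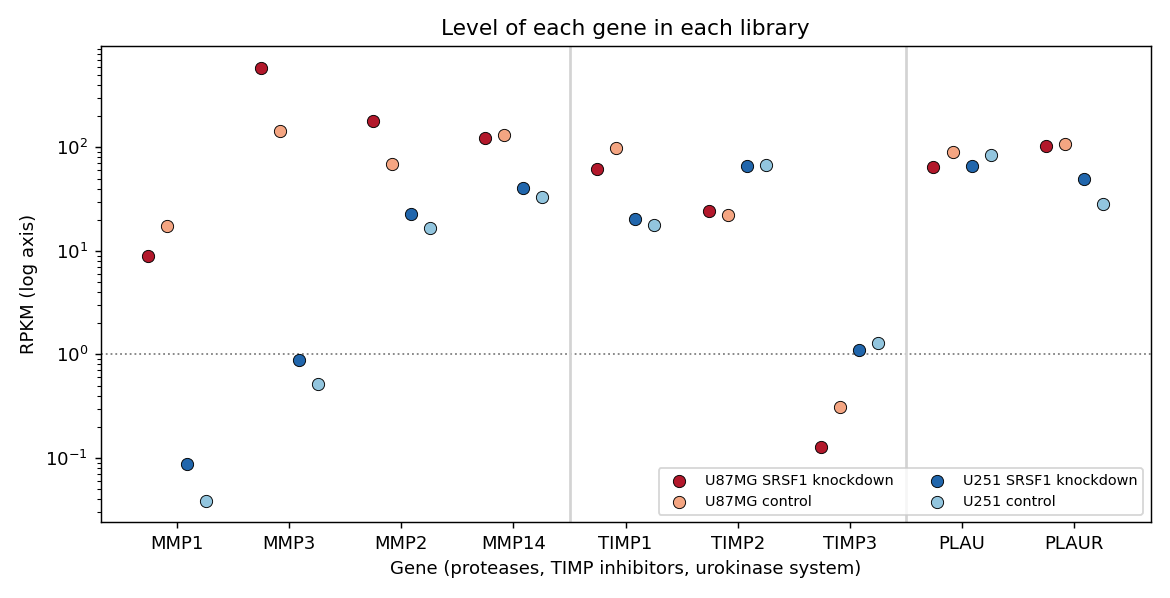
RPKM (log axis) of the 9 genes in each of the 4 libraries, 1 point per library, with proteases, TIMP inhibitors and the urokinase pair separated by grey lines and 1 RPKM dotted. The U87MG points lie above the U251 points for the 4 metalloproteases, TIMP1 and PLAUR, below them for TIMP2 and TIMP3, and among them for PLAU.

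The urokinase pair differed in whether the lines matched. PLAUR had 102 and 109 RPKM in the U87MG knockdown and control, against 49.8 and 28.4 RPKM in the U251 knockdown and control (1.46 ± 0.22, adjusted p = 0.00141 by limma). PLAU had 64.9 and 90.6 RPKM in the U87MG knockdown and control, and 65.9 and 84.8 RPKM in the U251 knockdown and control. The PLAU values of the lines interleave, and the limma estimate of 0.04 ± 0.16 had an adjusted p of 0.867. The PLAUR call was lost when genes of low level were kept in the fit (adjusted p = 0.0548). Over all genes, both U87MG libraries lay above both U251 libraries in 31.5% and below them in 37.0%, against 6 and 2 of the 9 genes. Among these, MMP1 and MMP3 passed the filter only through U87MG and TIMP3 only through U251, so their separation adds nothing to this comparison.

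The lines could also be compared within 1 arm, with no test. The U87MG level minus the U251 level on the log2(RPKM + 1) scale was 8.29 in the knockdown libraries and 6.56 in the control libraries for MMP3, and 2.92 and 1.98 for MMP2. It was 3.19 in the knockdown libraries and 4.16 in the control libraries for MMP1, 1.55 and 2.40 for TIMP1, 1.55 and 1.96 for MMP14, and 1.02 and 1.90 for PLAUR. The direction of these 6 genes was thus the same in either arm, with a wider gap in the knockdown for MMP3 and MMP2 and in the control for the other 4. TIMP2 had -1.40 and -1.56, and TIMP3 -0.90 and -0.80.

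Summed over the 4 metalloproteases, the level was 901 RPKM in the U87MG knockdown, 361 RPKM in the U87MG control, 64.8 RPKM in the U251 knockdown and 50.5 RPKM in the U251 control. The 3 TIMPs summed to 86.1, 122, 87.1 and 86.6 RPKM in the same libraries. The metalloprotease sum was therefore 10.5 times the TIMP sum in the U87MG knockdown and 2.97 times in the U87MG control, but 0.744 times in the U251 knockdown and 0.583 times in the U251 control. MMP3 made up 65.4% and 39.5% of the metalloprotease sum in the U87MG knockdown and control, and 1.36% and 1.04% in the U251 knockdown and control. Without MMP3 the ratios to the TIMP sum were 3.62 and 1.80 in the U87MG knockdown and control, and 0.734 and 0.577 in the U251 knockdown and control. These are transcript levels of single libraries, with no test.

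The second question was what SRSF1 knockdown does to the 9 genes. Across the lines, none was called by limma with the line as a block (n = 2 libraries per arm), where 1.16% of all genes tested were called higher and 2.61% lower in the knockdown. Estimates ran from -0.42 for MMP1 to 1.17 for MMP3, with SEs of 0.16 to 0.35 and adjusted p-values of 0.0789 to 0.901. At an unadjusted p under 0.05 there were 3 of the 9, MMP3, MMP2 and PLAU, against 21.1% of all genes. The median estimate was 0.05 over the 9 genes and -0.03 over all genes tested. The fit has 1 residual degree of freedom per gene, and the counts over all genes, 186 higher and 420 lower, became 12 higher and 9 lower after trimmed-mean rescaling of the libraries.

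**Figure D2:**
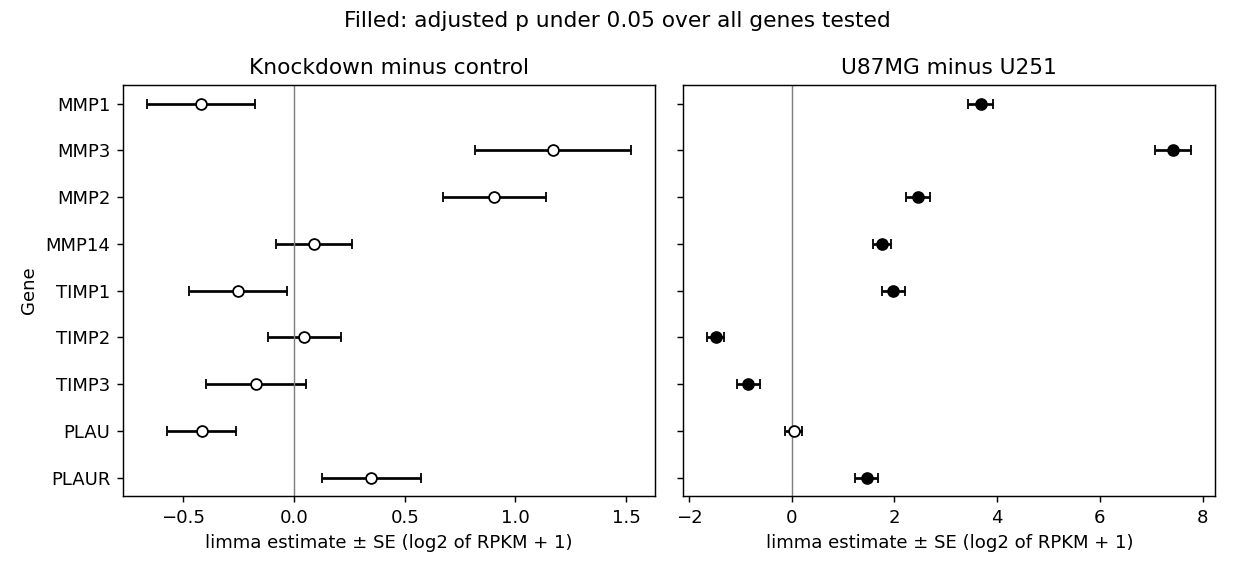
limma estimates with SE bars (log2 of RPKM + 1, n = 2 libraries per side) for knockdown minus control, left, and U87MG minus U251, right, with filled points where the adjusted p was under 0.05 over all genes tested. No point is filled on the left, and every gene except PLAU is filled on the right. MMP1 and MMP3 passed the filter only through U87MG and TIMP3 only through U251, so their filled points add nothing.

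Within U87MG, the stromelysin and the gelatinase stood well above their control. Of the 9 genes, 2, MMP3 and MMP2, were at least 2-fold higher in the U87MG knockdown on the log2(RPKM + 1) scale, where 2.33% of all genes were, and none was at least 2-fold lower, where 3.58% of all genes were. In U251 no member passed 2-fold, where 1.17% of all genes passed upwards and 1.71% downwards. Each line and arm is a single library, so these differences have no replicate check. The ratios below are of reads scaled by library size, with 95% Clopper-Pearson intervals.

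MMP3 in the U87MG knockdown was 4.12 times its control (4.02 to 4.24), from 27994 against 6871 reads. In U251 it was 1.68 times its control (1.004 to 2.89), from 45 against 24 reads. Its log2 ratios were 2.04 in U87MG, at percentile 99.8 of all genes tested there, and 0.30 in U251, at percentile 82.9. Across the lines limma gave 1.17 ± 0.35 (adjusted p = 0.114). The knockdown library was the higher of its pair in both lines, but the size differed and that difference was not tested, since the design leaves no residual degree of freedom for it.

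MMP2 went the same way as MMP3. It was 2.61 times its control in U87MG (2.51 to 2.72) and 1.37 times its control in U251 (1.25 to 1.51). The log2 ratios were 1.37 at percentile 99.1 in U87MG and 0.43 at percentile 90.4 in U251, and limma gave 0.90 ± 0.23 (adjusted p = 0.0789). Where only the 12216 genes with at least 1 RPKM in all 4 libraries were tested, MMP2 was called (adjusted p = 0.0126), and over all alternatives its adjusted p ran from 0.0126 to 1.0. Its gene model came out at 1763 bases, well under its longest transcript of 3741 bases, so the reads may be a common fraction of the true number and the interval is then too wide.

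MMP1 did not follow its neighbour MMP3. In U87MG it stood at 0.508 times its control (0.454 to 0.568), from 477 against 950 reads, with a log2 ratio of -0.90 at percentile 4.7. In U251, with 5 against 2 reads, the ratio of 2.24 had an interval of 0.367 to 23.6, and no difference was detectable at this depth. Limma gave -0.42 ± 0.24 across the lines (adjusted p = 0.37).

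MMP1 and MMP3 lie in a cluster of metalloprotease genes on chromosome 11, MMP1 from 102789920 to 102798160 and MMP3 from 102835801 to 102843803, both on the reverse strand (GRCh38). The cluster has 9 such genes in the table, and the values differ sharply between neighbours. MMP10 (stromelysin 2), on the other side of MMP1, had 8.86 and 2.59 RPKM in the U87MG knockdown and control, and 0.0407 and 0.0453 RPKM in the U251 knockdown and control. MMP7 (matrilysin) had the reverse line pattern, with 0.172 and 0.170 RPKM in U87MG and 3.13 and 5.34 RPKM in U251 (knockdown, then control). MMP13 (collagenase 3) had 0.0136 and 0 RPKM in the U87MG knockdown and control, and 0.845 and 0.463 RPKM in the U251 knockdown and control. MMP12 had 0.287 and 0.203 RPKM in U87MG and was listed at 0 in U251, while MMP8, MMP20 and MMP27 had at most 1 read in any library. In the U87MG knockdown both stromelysins were therefore above their control and the collagenase MMP1 between them was below it. Some MMP10 reads could belong to MMP3 or the reverse, as their shared words show.

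MMP14 and the TIMPs were not called between the arms. MMP14 was 0.924 times its control in U87MG (0.900 to 0.948) and 1.23 times in U251 (1.18 to 1.29), with log2 ratios of -0.11 and 0.29. TIMP2 was 1.10 times its control in U87MG (1.04 to 1.17) and 0.976 times in U251 (0.942 to 1.01). TIMP1 was 0.621 times its control in U87MG (0.590 to 0.654) and 1.13 times in U251 (1.02 to 1.26), with log2 ratios of -0.68 and 0.17. In these 3 genes the knockdown lay on opposite sides of its control in the lines, although the interval of TIMP2 in U251 includes equality, and among them TIMP1 in U87MG was the furthest from its control. TIMP3 was 0.405 times its control in U87MG (0.221 to 0.714) and 0.857 times in U251 (0.690 to 1.06), on few reads. Limma gave 0.09 ± 0.17 for MMP14, 0.05 ± 0.16 for TIMP2, -0.25 ± 0.22 for TIMP1 and -0.17 ± 0.23 for TIMP3, with adjusted p-values of 0.556 to 0.901. The sign of MMP14 in U87MG depends on the scaling, since trimmed-mean rescaling moved it to 0.01.

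**Figure D3:**
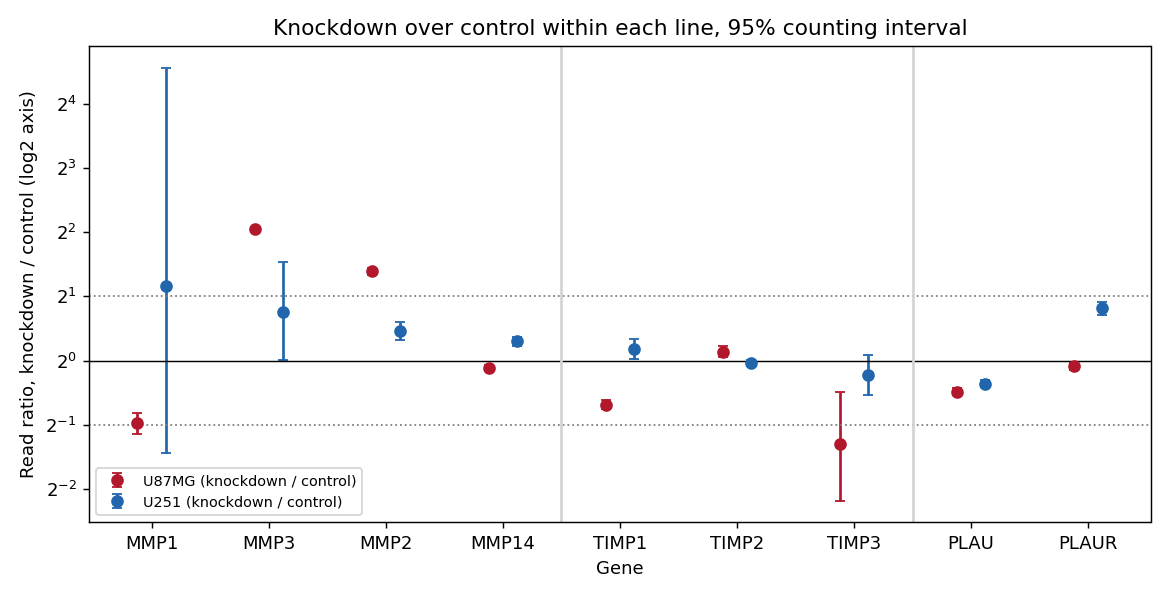
Read ratio of knockdown over control (log2 axis) for each gene in U87MG and in U251, with 95% Clopper-Pearson intervals and 2-fold marked by dotted lines. In U87MG MMP3 and MMP2 lie above 2-fold, and MMP1 and TIMP3 lie near or below 0.5, while PLAUR is highest among the well-covered genes in U251, at 1.75.

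PLAU lay below its control in both lines. It was 0.716 times its control in U87MG (0.689 to 0.744) and 0.777 times in U251 (0.748 to 0.808), with log2 ratios of -0.48 and -0.36. The adjusted p by limma was 0.188 (-0.42 ± 0.16), so the difference was not called, and these ratios stood at percentiles 15.8 and 17.2 of all genes. PLAUR behaved otherwise, at 0.939 times its control in U87MG (0.902 to 0.977) and 1.75 times in U251 (1.64 to 1.88). Its log2 ratios were -0.09 in U87MG, which trimmed-mean rescaling moved to 0.03, and 0.79 in U251, at percentile 97.8, and limma gave 0.35 ± 0.22 (adjusted p = 0.411). The level of PLAU per PLAUR was accordingly 0.636 in the U87MG knockdown and 0.833 in its control, against 1.32 in the U251 knockdown and 2.99 in the U251 control.

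In all, MMP3 and MMP2 lay above their controls in both lines, where 29.3% of all genes did, TIMP3 and PLAU below in both, where 36.5% did, and the other 5 lay on opposite sides, where 31.8% did. No direction was shared by all 9.

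**Figure D4:**
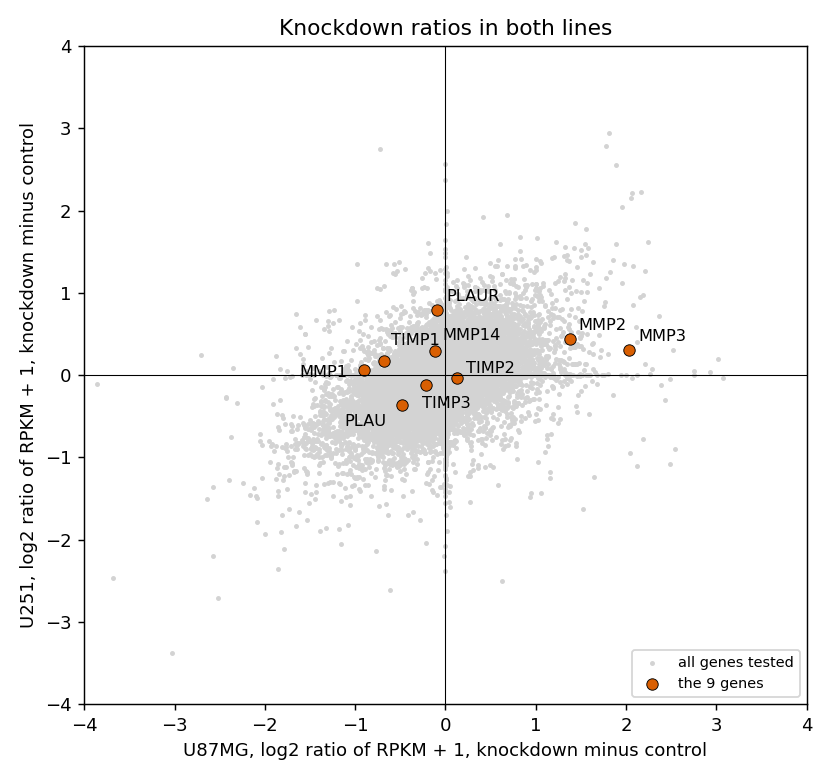
Log2 ratio of RPKM + 1, knockdown minus control, in U87MG (x axis) and U251 (y axis) for all 16098 genes tested (grey, 3 of them outside the axes) and the 9 genes (orange). MMP3 and MMP2 stand at the right edge of the cloud near 2.04 and 1.37 in U87MG, and PLAUR at its upper side with 0.79 in U251.

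Upstream sequence is shown for PLAU and PLAUR (RefSeq, GRCh38.p14), the ligand and receptor whose knockdown libraries lay on opposite sides of their controls in U251. Promoter sequence was matched for 5 of the 9 genes (PLAU, PLAUR, MMP14, TIMP1 and TIMP3), with 6 starts. The 250 bases before each start were searched on both strands for TGANTCA, the binding motif of AP-1 (a palindrome), and for GGGCGG, the GC box bound by SP1. The motifs share no end letters and so cannot overlap each other, and capitals mark every match. PLAUR is shown at chr19:43670170-43670419 on the reverse strand, and PLAU before its first start at chr10:73910360-73910609 and before its second start at chr10:73910882-73911131, both on the forward strand.
PLAUR: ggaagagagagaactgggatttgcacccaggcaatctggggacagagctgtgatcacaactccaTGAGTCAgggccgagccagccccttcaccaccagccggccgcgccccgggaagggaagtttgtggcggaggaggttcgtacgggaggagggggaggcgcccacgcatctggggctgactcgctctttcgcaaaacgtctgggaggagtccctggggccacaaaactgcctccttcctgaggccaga
PLAU, first start: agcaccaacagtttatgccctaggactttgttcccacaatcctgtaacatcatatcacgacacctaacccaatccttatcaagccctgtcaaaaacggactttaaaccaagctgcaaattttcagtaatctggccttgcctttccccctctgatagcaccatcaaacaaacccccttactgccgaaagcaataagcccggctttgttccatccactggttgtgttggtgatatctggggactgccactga
PLAU, second start: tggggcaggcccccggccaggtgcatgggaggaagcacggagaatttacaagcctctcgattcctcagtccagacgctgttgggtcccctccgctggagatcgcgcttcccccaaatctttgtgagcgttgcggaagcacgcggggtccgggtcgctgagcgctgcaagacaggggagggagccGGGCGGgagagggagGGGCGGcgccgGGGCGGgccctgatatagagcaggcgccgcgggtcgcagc
The PLAUR window holds 1 AP-1 match, which begins 186 bases before the start, and no GC box. The PLAU windows hold no AP-1 match, and the second one holds 3 GC boxes. Among the other windows, AP-1 letters were found in none, and GC boxes numbered 1 for MMP14, 2 for TIMP1 and 5 for TIMP3. Of 34788 upstream windows of the same length, 6.59% hold TGANTCA and 42.6% hold GGGCGG. A match is only a match of letters, and binding was not measured.

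Some genes that regulate urokinase had very different levels in the lines. Of 17 other genes of the plasminogen system, 9 passed the filter, and by limma 4 were called higher in U87MG, where 21.6% of all genes tested were, and 3 lower, where 27.0% were. Of these 7, SERPINB2 and LRP1 passed the filter only through U87MG and PLAT only through U251, so for these 3 the filter itself asks for a difference and their levels are given as a description. SERPINB2 (plasminogen activator inhibitor 2) had 943 and 2390 RPKM in the U87MG knockdown and control, against 0.628 and 0.846 RPKM in the U251 knockdown and control. LRP1, the endocytic receptor that clears urokinase bound to its inhibitor, had 19.8 and 25.6 RPKM in U87MG and 0.456 and 0.994 RPKM in U251 (knockdown, then control). PLAT, the tissue-type activator, was the reverse, with 0.546 and 0.827 RPKM in U87MG and 9.20 and 10.4 RPKM in U251. SERPINB2 thus lay far above PLAU in the U87MG libraries and far below it in the U251 libraries, and plasminogen itself (PLG) did not exceed 0.101 RPKM in any library.

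Between the arms, 1 of these 9 genes was called, where 1.16% of all genes tested were called higher and 2.61% lower in the knockdown. SERPINE2 (protease nexin 1, an inhibitor of urokinase, plasmin and thrombin) rose, with 79.5 and 27.9 RPKM in the U87MG knockdown and control and 34.9 and 21.7 RPKM in the U251 knockdown and control (1.07 ± 0.22, adjusted p = 0.0443 by limma). This call was lost after trimmed-mean rescaling (adjusted p = 0.095) and without a trend (0.0724). The median log2 ratio of these genes was -0.28 in U87MG and -0.06 in U251, where it was -0.05 and -0.00 over all genes. SERPINB2 had log2 ratios of -1.34 in U87MG and -0.18 in U251 and was not called (adjusted p = 0.155). ANXA2, an annexin that binds plasminogen at the cell surface, had 304 and 368 RPKM in the U87MG knockdown and control and 247 and 352 RPKM in the U251 knockdown and control (-0.39 ± 0.15, adjusted p = 0.184 by limma). The level of SERPINB2 per PLAU was 14.5 in the U87MG knockdown against 26.4 in the U87MG control.

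**Figure D5:**
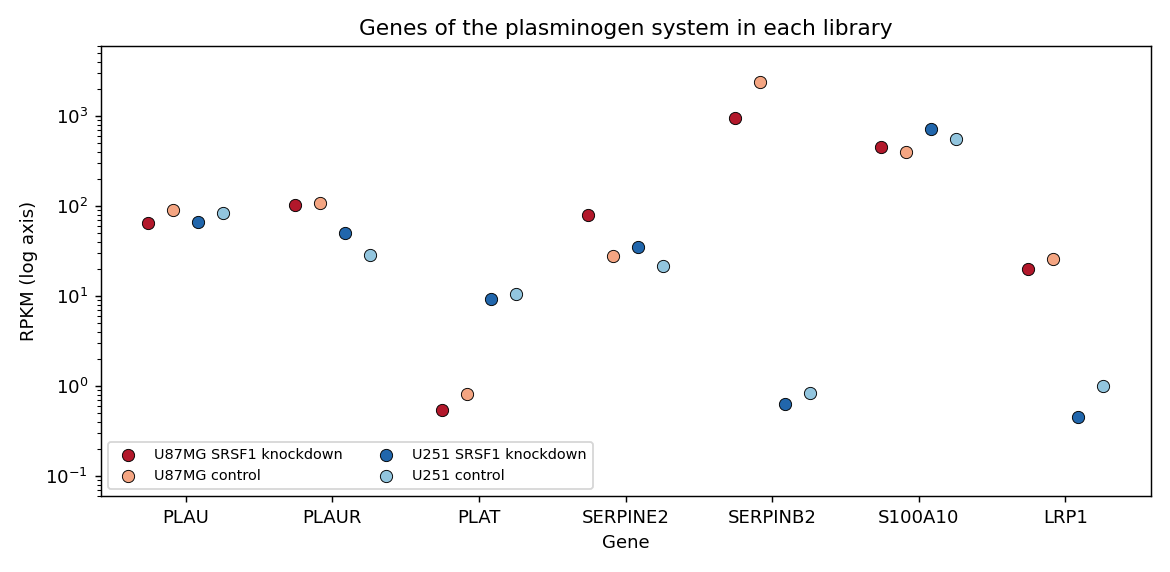
RPKM (log axis) of PLAU, PLAUR and 5 other genes of the plasminogen system in each library, 1 point per library. PLAU sits between 64.9 and 90.6 RPKM in all 4, while SERPINB2 and LRP1 stand high in U87MG and PLAT in U251.

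Among 19 other metalloproteases, 14 stayed under 1 RPKM in every library, MMP9 (gelatinase B) among them at no more than 0.26 RPKM. Of the 5 tested, none was called between the arms, where 1.16% of all genes tested were called higher and 2.61% lower. MMP10 had log2 ratios of 1.46 in U87MG and -0.01 in U251, MMP19 of 0.61 and -0.12, and MMP7 of 0.00 and -0.62. Between the lines 2 of the 5 were called higher in U87MG, where 21.6% of all genes tested were, and 2 lower, where 27.0% were. However, MMP10 and MMP19 passed the filter only through U87MG, and MMP7 and MMP15 only through U251, so the filter itself asks for those differences. Of 12 other inhibitors and surface regulators 9 passed the filter, with none called between the arms and 4 called higher and 4 lower in U87MG, where 21.6% and 27.0% of all genes tested were; 1 of the 8, HGF, passed the filter only through U87MG. CD151, a tetraspanin, came nearest, with log2 ratios of 0.55 and 0.61 (adjusted p = 0.0919), and CD44, CAV1 and TSPAN14 had limma estimates between -0.38 and -0.14. TIMP4, the TIMP not among the 9, had 4.79 and 3.33 RPKM in the U87MG knockdown and control. It had 1.25 and 0.390 RPKM in the U251 knockdown and control, on 57 and 16 reads. Its log2 ratios were 0.42 in U87MG and 0.69 in U251 (adjusted p = 0.152 by limma).

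In the other lists few genes were called between the arms, as over all genes tested, where 1.16% were called higher and 2.61% lower. None of 17 ADAM and ADAMTS proteases, 14 cathepsins and cystatins or 2 proprotein convertases was called between the arms. ADAMTS9, an aggrecanase, had 3.45 and 4.07 RPKM in the U87MG knockdown and control, against 9.73 and 2.54 RPKM in the U251 knockdown and control. ADAMTS6 had 1.37 and 6.71 RPKM in the U87MG knockdown and control, against 1.90 and 1.92 RPKM in the U251 knockdown and control. ADAM10, a sheddase, had log2 ratios of -0.63 in U87MG and -0.50 in U251 (adjusted p = 0.108). CTSL, a lysosomal and secreted cysteine protease, had log2 ratios of 0.74 in U87MG and 0.47 in U251 (adjusted p = 0.075), and FURIN, a convertase that activates MMP14, of -0.42 and -0.45 (adjusted p = 0.182). Among 18 matrix substrates, VCAN, the proteoglycan versican, fell by 1.22 on the log2 scale (adjusted p = 0.0254 by limma), with 4.96 and 16.5 RPKM in the U87MG knockdown and control and 15.1 and 28.7 RPKM in the U251 knockdown and control. Of the 18, 16 were called lower in U87MG than in U251, where 27.0% of all genes tested were, and 1 was called higher, where 21.6% were. Among the 16, COL4A1, COL4A2, NID1 and THBS1 passed the filter only through U251, so their calls add nothing to the count. FN1, a substrate of MMP3, had 5.25 and 9.30 RPKM in the U87MG knockdown and control, against 28.8 and 40.3 RPKM in the U251 knockdown and control. Among 17 transcription factors reported upstream of these proteases, JUNB, an AP-1 subunit, fell by 1.04 on the log2 scale (adjusted p = 0.0414 by limma), with 16.6 and 27.1 RPKM in the U87MG knockdown and control and 5.14 and 15.1 RPKM in the U251 knockdown and control. In that list 8 were called higher in U87MG, where 21.6% of all genes tested were, and 2 lower, where 27.0% were. The calls of VCAN and JUNB were lost after trimmed-mean rescaling (adjusted p = 0.0711 and 0.108), and that of JUNB also without a trend (adjusted p = 0.07).

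Profiles over the 4 libraries were compared by the Euclidean distance between centred log2(RPKM + 1) values, for 10744 other genes with at least 5 RPKM in some library. Nearest to PLAU were MLF2 (distance 0.03), TP53RK (0.05) and FER (0.05). Nearest to TIMP1 were SORD (0.07), HAS2 (0.11), which makes the matrix polysaccharide hyaluronan, and APLN (0.21). PLAUR had KCNN4 (0.17) and SPRYD3 (0.17) closest, and MMP2 had LOC100505592 (0.17), LINC00944 (0.18) and DPP4 (0.22), a cell surface peptidase. MMP3 had no close neighbour, with RRAD at 1.39 as the nearest. The distances are descriptions over 4 libraries of 2 lines.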

How the data were processed

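Poly(A) RNA of 4 libraries was made into paired-end libraries with an Illumina kit, per the labels. The deposited table holds RPKM values, which the authors scaled to gene length and library size. Bowtie 0.12.2 and hg19 are named in the submitters' processing notes; no source used here gives the counting program, the annotation, the strand setting or the handling of multiple hits. No coordinates were converted between builds. Groups follow the sample titles.

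RPKM steps of hairpin miRNA genes of known length gave the reads per library (the most frequent total), and the smallest gene length, up to 40000 bases, that made all 4 values whole within 0.01 reads gave the reads per gene, for 27928 of 27973 genes above 0 (99.8%); of genes multiplied by random factors 0.6% passed. These reads are a lower limit, since a multiple would do as well, and served only for ratios and intervals, which cover counting error and not independent molecules.

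limma 3.58.1 (R 4.3.3) was fitted on log2(RPKM + 1) of 16098 genes with at least 1 RPKM in at least 1 library, with terms for line and arm and eBayes with a trend on mean level; tests were two-sided and p-values adjusted by Benjamini-Hochberg. Fold changes on this scale understate those of low genes. The 2 libraries of an arm are 2 lines, so they are paired by line; nothing says that cultures were separate, so p-values cover only how these 4 libraries scatter, and the labels give no batch. Within a line no test was made. The fit and the read recovery were tested on simulated data. Alternatives were the pseudocount, the filter, trimmed-mean and quantile scaling, no trend, no block and leaving out each line or arm. Genes eligible to be named were the 9, the 3 nearest profiles of each, and SRSF1. From each context list came the 4 or fewer with at least 5 RPKM and the largest mean ratio. Not all of these are printed. Left out were ADAM17, CTSA, CTSD, CTSS, PCSK7, COL1A1, COL6A2, ETS2, ETV1 and EGR1. Several nearest profiles were left out too, among them those of MMP1, MMP14, TIMP2 and TIMP3. PLAT, PLG, TIMP4, MMP8, MMP9, MMP12, MMP13, MMP20 and MMP27, the cell type markers and the overlapping genes were added for context, as were the genes named for how they passed the filter. Members and lists were chosen with earlier results of these data known. Promoters are from RefSeq (GRCh38.p14), transcripts from GENCODE 29. Other steps ran in Python 3.11.15 with scipy 1.17.1, and figures in matplotlib 3.10.9. Some items are not reported here.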

Additional observations from a re-analysis of the deposited data

Results flagged for a closer look

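In 5 of the 9 genes the U87MG ratio of knockdown to control had the opposite sign from the U251 ratio. The difference was not tested, as each ratio rests on a single pair of libraries, and 31.8% of all genes tested did the same. The U87MG log2 ratio minus the U251 log2 ratio was -0.97 for MMP1 (ratios -0.90 and 0.07), -0.88 for PLAUR (-0.09 and 0.79), -0.85 for TIMP1 (-0.68 and 0.17), -0.41 for MMP14 (-0.11 and 0.29) and 0.17 for TIMP2 (0.13 and -0.04). The U251 values of MMP1 are 5 and 2 reads, and the U87MG signs of MMP14 and PLAUR turned after trimmed-mean rescaling.

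Among the other named genes, the same difference was -1.79 for ADAMTS9, -0.73 for CD44, 0.45 for CAV1, 0.62 for MMP7, 0.73 for MMP19 and 1.46 for MMP10. In U251, MMP10 had 2 and 2 reads and MMP19 had 11 and 18 reads (knockdown, then control). MMP7 had 5 and 5 reads in U87MG, so the signs of these genes there rest on few reads.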

How the results depend on the processing

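All calls of the 9 genes between the lines kept their direction and their side of the threshold under the alternatives that tested them, except that PLAUR was not called without the filter on low values (adjusted p = 0.0548), and that PLAU, not called, turned to -0.0305 after quantile normalization, as did ANXA2 (-0.0554). Members called between the lines numbered 5, and between the arms 1 (MMP2), where 1 RPKM in all 4 libraries was required, a filter that leaves out MMP1, MMP3 and TIMP3; members past 2-fold in U87MG then numbered 1. For knockdown minus control over all genes, against 186 higher and 420 lower, limma called 0 and 0 without the filter (1234 and 1890 at an unadjusted p under 0.05), 442 and 877 with 1 RPKM in all 4 libraries, 12 and 9 after trimmed-mean rescaling, 313 higher after quantile normalization, and 88 and 172 without a trend. A further fit was unpaired, with no replicate block for the cell line. It called 0 higher and 0 lower (79 and 183 at an unadjusted p under 0.05, 0 of them members). For U87MG minus U251 without the filter, 1856 genes were higher and 2430 lower. Genes at least 2-fold higher and lower in the U87MG knockdown were 726 and 1101 with a pseudocount of 0.1, and 187 were higher with 1 RPKM in all 4 libraries; in U251 these were 470 and 719 with 0.1, 437 lower with 0.5, and 108 and 148 with 1 RPKM in all 4 libraries. The cause of these shifts was not tested, beyond the number of genes the filters leave. Leaving out a line gives the ratio of the other line, with no test: -0.90 to 0.07 for MMP1, 0.30 to 2.04 for MMP3 and 0.43 to 1.37 for MMP2. Depth limits MMP1 and MMP3 in U251 and TIMP3 in U87MG.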
